A study of Arabidopsis thaliana with 18 samples.

Results

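The genes described here are 6 transcripts used as markers of systemic acquired resistance in Arabidopsis thaliana: ALD1 (AT2G13810, probe set 265658_at), FMO1 (AT1G19250, 256012_at), PNP-A (AT2G18660, 266070_at), AED1 (AT5G10760, 250445_at), ACD6 (AT4G14400, 245265_at) and LURP1 (AT2G14560, 265837_at). They were chosen by probe set, and they are 6 of the 22810 probe sets on the array. None of the 6 is in the platform's probe table used here, so the pairing of probe set and gene comes from the list that defined the group. A RefSeq table of TAIR10.1 holds all 6 loci under these names, AED1 as a synonym. Plants of accession Mt-0 had received SA (read here as salicylic acid) at 0.30 mM in 0.02% silwet, a surfactant, or 0.02% silwet alone, and total RNA was hybridised to 9 ATH1 arrays per treatment. The title of each array carries a serial number and a replicate number from 1 to 3. A further number, of unstated meaning, follows the serial number and was not used to form sets or pairs. When the titles are sorted by it, each silwet array directly precedes the SA array of the same set and replicate number. The replicate numbers occupy separate ranges of it. Consecutive serial numbers form 3 sets per treatment, so that each of the 6 groups of treatment and set held 3 arrays. The labels name no sets: these, and the match of an SA set with a silwet set, were read from the order of the serial numbers. The labels also name no tissue, age or harvest time. Nor do they say whether the arrays of a group came from separate plants, so the tests cover the spread between arrays, which may be technical.

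Systemic acquired resistance is a state of heightened defence that spreads from an attacked leaf to the rest of the plant, and salicylic acid is among the hormones that drive it. ALD1 and FMO1 make N-hydroxypipecolic acid, a lysine-derived signal that moves between leaves: ALD1 is the aminotransferase that starts the route, the reductase SARD4 completes pipecolic acid, and FMO1 hydroxylates it. PNP-A is a small secreted peptide related to expansins, AED1 an aspartyl protease of the apoplast, ACD6 a membrane protein with ankyrin repeats that raises salicylic acid signalling, and LURP1 a protein named for its late rise after infection by a downy mildew.

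The values were MAS5 signals on a linear scale, and the median signal per array ran from 27.5 to 37.3. The 3 SA arrays of set 1 stood apart from the others. On the first principal component they lay between 52.8 and 67.7, against at most 24.1 (silwet replicate 3 of set 1) on the other 15 arrays. For the ubiquitin control, the 3′ over 5′ ratio was 0.706 to 1.12 in log2 on these arrays, against 1.15 to 1.81 on the other 15, while the actin and GAPDH ratios lay within the range of the others. The part of this ratio in the results of set 1 was not tested. Of 6 leaf markers 3 were named by the probe table, and their summed signal was 4968 to 7454 on the SA arrays and 6065 to 9074 on the silwet arrays of set 1, ranges that overlap. In bulk RNA, fewer cells of a type and less transcript per cell cannot be told apart.

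In set 1, ALD1, FMO1 and PNP-A were each several-fold higher after SA than after silwet. AED1, ACD6 and LURP1 did not pass the test there. Thus 3 of the 6 members were called higher and none lower, where 6.8% of the 13647 tested probe sets were called higher and 6.05% lower. All 6 members lay above the limit for testing. Differences are given on the scale of log2(signal + 16), which understates changes of weak signals, and a call is a limma p under 0.05 after Benjamini-Hochberg adjustment over all tested probe sets. On that scale the members' median difference in set 1 was 1.69, against -0.11 over all tested probe sets.

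**Figure D1:**
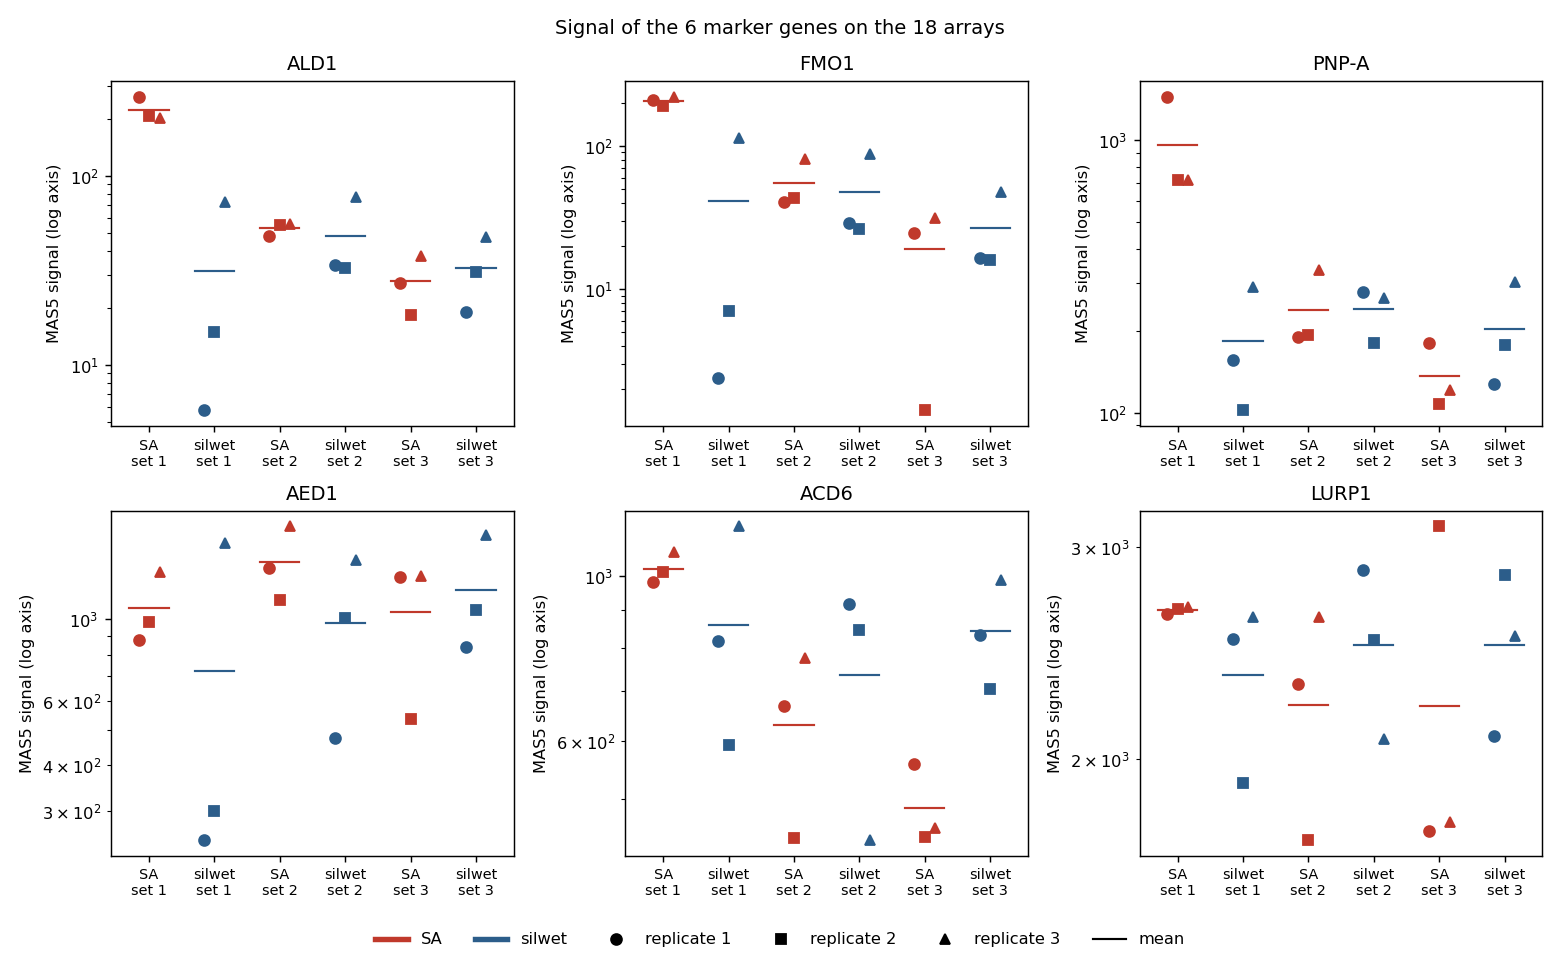
MAS5 signal (log axis, each panel with its own range) of the 6 marker genes by treatment and serial set; symbols mark replicate numbers and horizontal lines the means of 3 arrays. The SA arrays of set 1 lie above the silwet arrays of set 1 for ALD1, FMO1, PNP-A and, by a small margin, LURP1.

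ALD1 had signals of 262, 208 and 202 on SA replicates 1, 2 and 3 of set 1, against 5.74, 14.9 and 73.0 on the silwet replicates. The arrays did not overlap, and silwet replicate 3 was far above the other silwet arrays. The log2 difference was 2.61 ± 0.38 (SE, n = 3 each), a 6.10-fold increase on the log2(signal + 16) scale (limma adjusted p = 0.000404). The size depends on the pseudocount, with log2 differences of 3.49 at a pseudocount of 1 and 1.66 at 64. In set 2 the signals were 48.1, 54.8 and 55.6 on SA arrays and 33.9, 32.6 and 77.2 on silwet arrays. In set 3 they were 26.9, 18.4 and 37.5 on SA arrays and 19.0, 30.8 and 47.3 on silwet arrays. In both of these sets the treatments overlapped, with log2 differences of 0.17 (95% confidence interval -0.63 to 0.98) in set 2 and -0.13 (-0.94 to 0.68) in set 3. Without silwet replicate 3 of set 1 the difference in set 1 was 3.20.

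FMO1, the monooxygenase that completes the signal, had 209, 189 and 220 on the SA arrays of set 1, against 2.37, 7.01 and 113 on the silwet arrays. As for ALD1, the treatments did not overlap and silwet replicate 3 stood above its 2 companions. The log2 difference was 2.55 ± 0.57 (SE, n = 3 each, limma adjusted p = 0.00728), with a 95% confidence interval from 1.35 to 3.75. It was 3.43 without silwet replicate 3 of set 1. The call ended when all arrays of replicate 1 or of replicate 2 were left out (log2 differences 2.01 and 2.24, limma adjusted p = 0.139 and 0.120), in fits with 2 arrays per group. In set 2, FMO1 had 40.2, 43.2 and 81.2 on SA arrays and 28.9, 26.3 and 87.2 on silwet arrays. The set 3 signals were 24.5, 1.42 and 31.5 on SA arrays and 16.4, 15.98 and 47.7 on silwet arrays. These overlapped, at 0.24 (-0.96 to 1.44) in set 2 and -0.33 (-1.53 to 0.87) in set 3. The files used here carry no detection calls, so whether signals as low as 1.42 or 2.37 exceed background is not known, and the set 1 difference was 3.83 with a pseudocount of 1 and 1.52 with 64.

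The other genes of the same route were a list of 3 beside the 2 members, drawn up with earlier results of these data known. The probe table named 2 of them. Both were called higher in set 1, as were 6.8% of all tested probe sets. SARD4, the reductase between ALD1 and FMO1, had 1311, 1093 and 1047 on SA arrays against 184, 222 and 290 on silwet arrays. Its log2 difference was 2.25 ± 0.22 (SE, limma adjusted p = 9.13e-06), and it was at -0.18 in set 2 and -0.42 in set 3. UGT76B1, which glucosylates salicylic acid and N-hydroxypipecolic acid, had 1070, 1271 and 1633 against 27.4, 119 and 213. Each measured gene of the route thus had every SA array above every silwet array in set 1, as for 12.3% of tested probe sets.

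**Figure D2:**
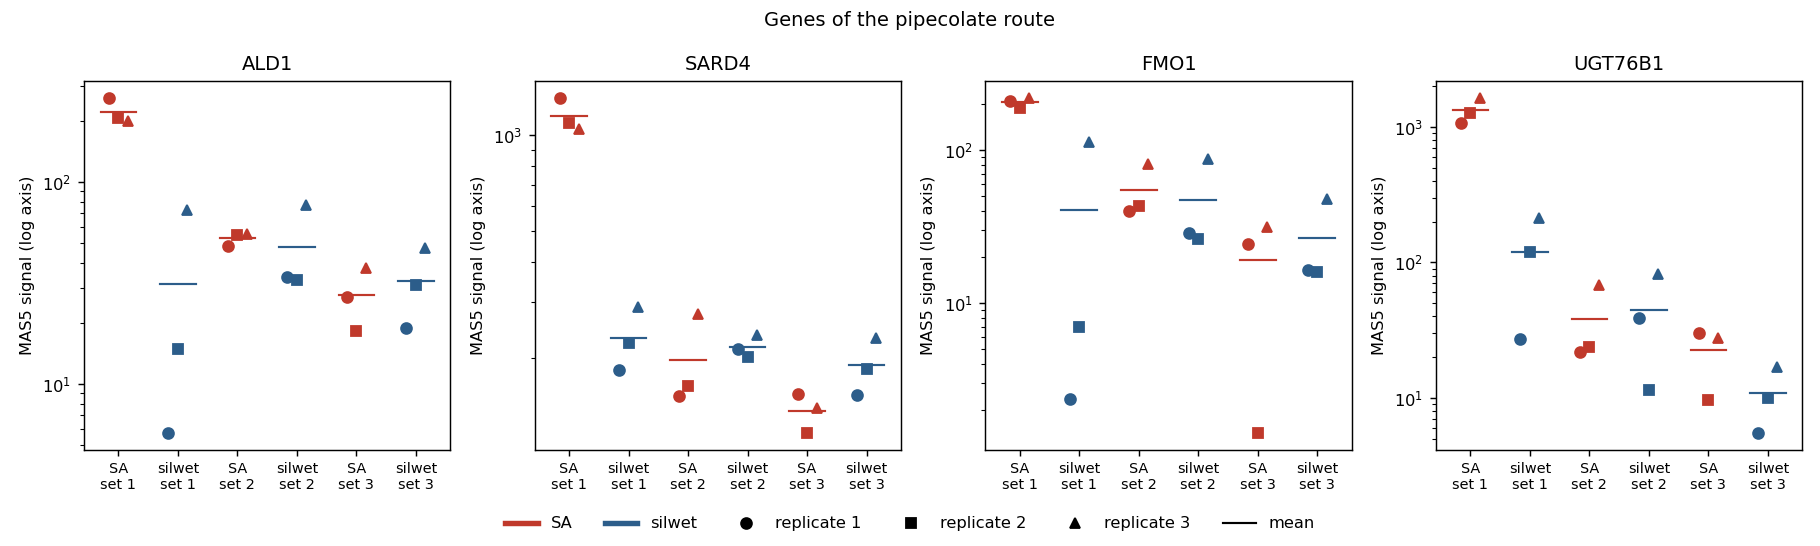
MAS5 signal (log axis, each panel with its own range) of ALD1, SARD4, FMO1 and UGT76B1 by treatment and serial set; symbols mark replicate numbers and lines the means of 3 arrays. In each panel the 3 SA arrays of set 1 are above the other 15 arrays.

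PNP-A, the secreted peptide, had 1447, 712 and 715 on the SA arrays of set 1, against 157, 102 and 289 on the silwet arrays. No silwet array reached the lowest SA array, and SA replicate 1 stood well above the other SA arrays. The log2 difference was 2.32 ± 0.37 (SE, n = 3 each), with a 95% confidence interval from 1.55 to 3.10 (limma adjusted p = 0.000701). In set 2, PNP-A had 189, 193 and 333 on SA arrays and 277, 180 and 263 on silwet arrays. Set 3 gave 181, 108 and 121 on SA arrays and 128, 176 and 301.8 on silwet arrays. The differences were -0.03 (95% confidence interval -0.81 to 0.74) in set 2 and -0.47 (-1.24 to 0.31) in set 3, and the arrays overlapped in both.

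AED1, the apoplastic protease, had 881, 986 and 1350 on the SA arrays of set 1 and 250, 301 and 1616 on the silwet arrays. The treatments overlapped only through silwet replicate 3, which was the highest of the 6 arrays. The log2 difference of 1.05 ± 0.55 (SE, n = 3 each) did not pass (limma adjusted p = 0.237, and 0.0564 in a fit that blocks on the 9 pairs of same-numbered arrays). Without silwet replicate 3 of set 1 it was 1.88, and passed (limma adjusted p = 0.00958). It also passed without all arrays of replicate 3 (1.71, limma adjusted p = 0.0461). Leaving out silwet replicate 1 of set 1 lowered it to 0.57 (limma adjusted p = 0.587), and leaving out all arrays of replicate 1 to 0.70. In set 2, AED1 had 1378, 1131 and 1793 on SA arrays and 474, 1007 and 1455 on silwet arrays, a difference of 0.66 (-0.50 to 1.82). The arrays of set 3 had 1304, 534 and 1310 on SA arrays and 840, 1062 and 1696 on silwet arrays, a difference of -0.24 (-1.40 to 0.92).

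ACD6, the ankyrin protein, had 980, 1012 and 1077 on the SA arrays of set 1 and 817, 593 and 1165 on the silwet arrays. The SA arrays lay close together within the wider range of the silwet arrays, and the difference was 0.30 ± 0.27 (SE, n = 3 each, limma adjusted p = 0.528). In set 2 it had 668, 443.6 and 775 on SA arrays and 916, 847 and 441 on silwet arrays, with a difference of -0.19 (95% confidence interval -0.77 to 0.39). In set 3, by contrast, every SA array was below every silwet array, with 559, 445 and 457 against 833, 703 and 988. Of all tested probe sets, 2.7% had every SA array lower in set 3. The difference of -0.76 ± 0.27 had an unadjusted limma p of 0.0127 and did not pass (limma adjusted p = 0.9998).

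LURP1, from the family of LURP-one-related proteins, varied within the narrowest fold range of the 6. Its signal was 2637, 2662 and 2673 on the SA arrays of set 1 and 2513, 1909 and 2620 on the silwet arrays. Every SA array was thus above every silwet array, as for 12.3% of tested probe sets, by a margin of less than the spread of the silwet arrays. The difference of 0.19 ± 0.22 did not pass (SE, n = 3 each, limma adjusted p = 0.631). In set 2, LURP1 had 2309, 1712 and 2624 on SA arrays and 2869, 2511 and 2077 on silwet arrays. In set 3 it had 1742, 3119 and 1771 on SA arrays and 2089, 2842 and 2528 on silwet arrays. These overlapped, at -0.18 (-0.64 to 0.29) and -0.21 (-0.68 to 0.26), so that in no set did the interval reach a 2-fold change.

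**Figure D3:**
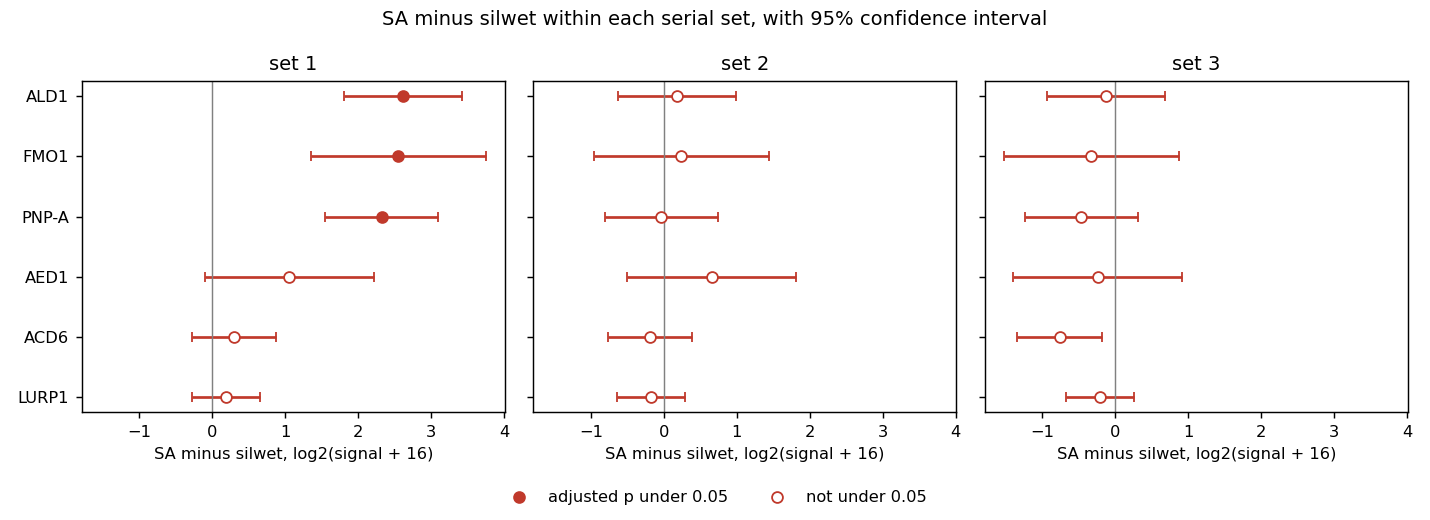
SA minus silwet in log2(signal + 16) for the 6 marker genes in sets 1, 2 and 3; points are limma estimates, bars 95% confidence intervals, and filled points passed at an adjusted p under 0.05. ALD1, FMO1 and PNP-A, between 2.32 and 2.61 in set 1, are the filled points.

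No member was called in set 2 or in set 3, where limma called 0% of all tested probe sets. At an unadjusted p under 0.05 there were 0 members in set 2 and 1, ACD6, in set 3, against 233 and 187 of the 13647 tested probe sets. Both counts are a smaller share than the 0.05 that this threshold passes where nothing differs. The intervals are wide: for FMO1 they still hold a change of more than 2-fold upward in set 2 and downward in set 3. These intervals come from the fit without pairs, although same-numbered arrays were correlated (0.129 to 0.770 in the 9 pairs). The part of this pairing in their width was not tested. With the 9 pairs as a block, 0% of probe sets were called in set 2 and in set 3 as well. Averaged over the sets, no member passed, with 0.256% of probe sets called. ALD1 was at 0.88 ± 0.22 (SE, n = 9 each, limma adjusted p = 0.147), FMO1 at 0.82 ± 0.33 and PNP-A at 0.61 ± 0.21. When the 9 pairs were blocked ALD1 passed (limma adjusted p = 0.0436), where 1.93% of probe sets were called. ALD1 and FMO1 also passed without silwet replicate 3 of set 1 (1.08 and 1.12, limma adjusted p = 0.00353 and 0.0365) and without all arrays of replicate 3 (1.21 and 1.17, limma adjusted p = 0.0142 and 0.0492).

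Whether the effect of SA differed between the sets was tested directly. The model by set was chosen with earlier results of these data known, so these p-values are not those of a contrast set in advance. The effect in set 1 exceeded the mean effect of sets 2 and 3 for 3 of the 6 members, where 4.9% of tested probe sets were called higher and 7.94% in either direction. The excess was 2.59 ± 0.47 for ALD1 (SE, limma adjusted p = 0.00347), 2.59 ± 0.70 for FMO1 (limma adjusted p = 0.0296) and 2.57 ± 0.45 for PNP-A (limma adjusted p = 0.00275). ACD6 was at 0.78 ± 0.34 and AED1 at 0.84 ± 0.67, and neither passed. The call of FMO1 ended when any of 7 arrays was left out, namely SA replicates 1 and 3 and silwet replicates 1 and 2 of set 1, SA replicates 1 and 2 of set 2, and silwet replicate 3 of set 3 (limma adjusted p from 0.0512 to 0.100). It also ended with a pseudocount of 1 (limma adjusted p = 0.0562). All 3 calls ended without all arrays of replicate 1 or of replicate 2, at excesses from 2.21 to 2.47.

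By the F test over all 3 sets, ALD1 and PNP-A differed between sets (limma adjusted p = 0.0137 and 0.0108), where 3.52% of probe sets were called. FMO1 did not pass (limma adjusted p = 0.0889), but did when pairs were blocked (0.00932), where 18.2% were called. FMO1 passed too without silwet replicate 3 of set 1 (limma adjusted p = 0.00285) and without all arrays of replicate 3 (0.00773). With replicate numbers blocked it also passed, as fixed or as random effects (limma adjusted p = 0.0090 and 0.0284), where 7.69% and 6.82% were called. A pseudocount of 64 had the same outcome (limma adjusted p = 0.0442). The call of ALD1 ended without silwet replicate 2 of set 1 (limma adjusted p = 0.0609), and both calls ended without all arrays of replicate 1 or of replicate 2 (limma adjusted p from 0.117 to 0.336).

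Among the SA arrays, the higher level in set 1 also separated it from the other sets. Set 3 was below set 1 for 4 of the 6 members, where 14.5% of tested probe sets were called lower. ALD1 was lower by a log2 difference of -2.47 ± 0.38 (SE, n = 3 each, limma adjusted p = 0.000127), FMO1 by -2.78 ± 0.57, PNP-A by -2.62 ± 0.37 and ACD6 by -1.05 ± 0.27 (limma adjusted p = 0.00742). In set 2, ALD1 (-1.79), FMO1 (-1.69) and PNP-A (-1.90) were below set 1, where 12.5% of probe sets were called lower. There the FMO1 call ended without any array of SA set 1, or without SA replicate 1 or 2 of set 2 (limma adjusted p from 0.0616 to 0.111). A pseudocount of 1 (limma adjusted p = 0.175) or testing of all Arabidopsis probe sets (0.0567) ended it too. So did leaving out all arrays of replicate 1 or of replicate 2 (limma adjusted p = 0.167 and 0.161). ACD6, at -0.72 ± 0.27, was just outside the threshold (limma adjusted p = 0.0597). It passed when replicate numbers were blocked, as fixed or as random effects (limma adjusted p = 0.0481 and 0.0429) and with array weights (0.0130). It passed too with quantile normalization (-0.78, limma adjusted p = 0.0392), and without silwet replicate 2 or 3 of set 1 or replicate 3 of set 2 in either treatment (limma adjusted p from 0.0312 to 0.0484). LURP1, at -0.28 in set 2 and -0.32 in set 3 against set 1, did not pass. With quantile normalization it was at -0.49 and -0.75 and passed in both (limma adjusted p = 0.0243 and 0.00132). In set 3 it passed without SA replicate 2 too (-0.59, limma adjusted p = 0.0315). LURP1 also passed there with array weights (-0.52, limma adjusted p = 0.0462) and without all arrays of replicate 2 (-0.59, 0.0498).

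Among the silwet arrays no member passed the test between sets, where 0.572% of probe sets were called in set 2 against set 1 and 1.05% in set 3 against set 1. AED1 came nearest, at 1.17 ± 0.55 in set 3 against set 1 (limma adjusted p = 0.494). Without silwet replicate 3 of set 1 it was 2.004 and passed (limma adjusted p = 0.0467). These comparisons share arrays with those of SA against silwet.

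Ordered by mean level, SA set 1 was the highest of the 6 groups for 5 of the 6 members, and AED1 was highest in SA set 2. For ALD1, FMO1 and PNP-A the step to the next group (1.79, 1.69 and 1.87 in log2) exceeded the larger SD of the neighbouring groups. For ACD6 the step of 0.29 to silwet set 3 also exceeded it (SD 0.24). Each of the other steps, including all 5 of AED1 and all 5 of LURP1, was smaller than the larger SD of the groups on either side. The lowest group was SA set 3 for FMO1, ACD6, PNP-A and LURP1, and silwet set 1 for ALD1 and AED1.

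**Figure D4:**
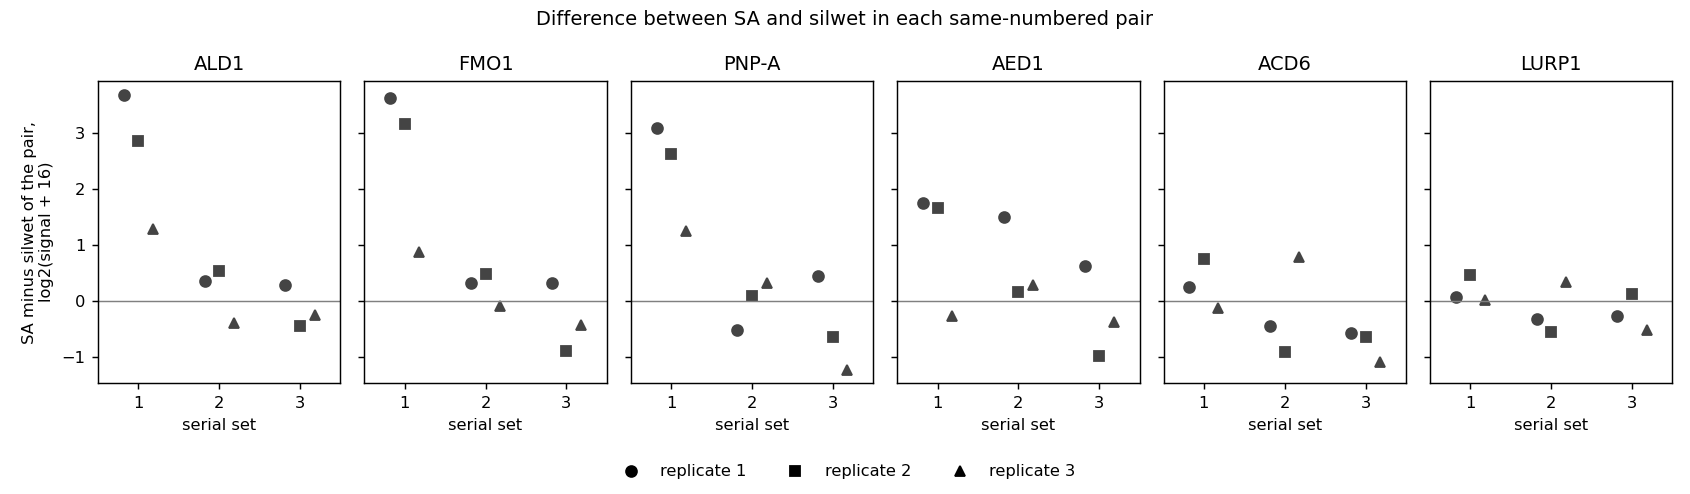
SA minus silwet in log2(signal + 16) for each of the 9 pairs of arrays with the same replicate number and serial set, by gene; symbols mark replicate numbers. In set 1 replicate 3 shows the smallest difference for all 6 genes, between -0.26 and 1.29. The share of all tested probe sets with this order was not counted.

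Within groups, the place of replicate 3 differed between members. In set 1, replicate 3 had a smaller difference between SA and silwet than replicates 1 and 2 for all 6 members. The share of all tested probe sets with this order was not counted. On the first principal component, silwet replicate 3 of set 1 (24.1) lay nearest to the SA arrays of set 1. ALD1 differed by 3.68, 2.86 and 1.29 in replicates 1, 2 and 3, FMO1 by 3.62, 3.16 and 0.87, and PNP-A by 3.08, 2.63 and 1.26. AED1 differed by 1.75, 1.66 and -0.26. Silwet replicate 3 was the highest silwet array in all 3 sets for ALD1, FMO1 and AED1, as for 6.51% of tested probe sets. FMO1 and AED1 had their highest array in replicate 3 in all 6 groups, as for 2.34% of probe sets. ALD1 had it there in 5 of the 6 groups, ACD6 in 4, and PNP-A and LURP1 in 3 each. In SA set 1, PNP-A was highest in replicate 1.

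The levels of ALD1, FMO1 and PNP-A went together over the 18 arrays, with Pearson correlations of log2(signal + 16) of 0.96 for ALD1 and FMO1, 0.92 for ALD1 and PNP-A, and 0.89 for FMO1 and PNP-A. By its correlation with ALD1, FMO1 had rank 3 among all tested probe sets. Without the SA arrays of set 1 these were 0.94, 0.71 and 0.80 over 15 arrays. After each group's mean was subtracted, the correlations of PNP-A were 0.64 with ALD1 and 0.67 with FMO1. By the same measure the correlation of ALD1 and FMO1 was 0.93, of FMO1 and AED1 0.93, and of ALD1 and AED1 0.86. AED1 thus varied with ALD1 and FMO1 within groups more closely than over all arrays, where these correlations were 0.60 with FMO1 and 0.50 with ALD1. The silwet arrays of set 1 weighed most in these within-group values. There the SD in log2 was the largest of the 6 groups for ALD1 (1.06), FMO1 (1.54) and AED1 (1.44), with replicate 3 highest. Within-group values without that group were not computed. LURP1 had correlations between -0.11 and 0.56 with the other members over the 18 arrays, with ACD6 highest. All values come from the same arrays, which share labelling, scaling and the pairing by replicate, and are given as a description.

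**Figure D5:**
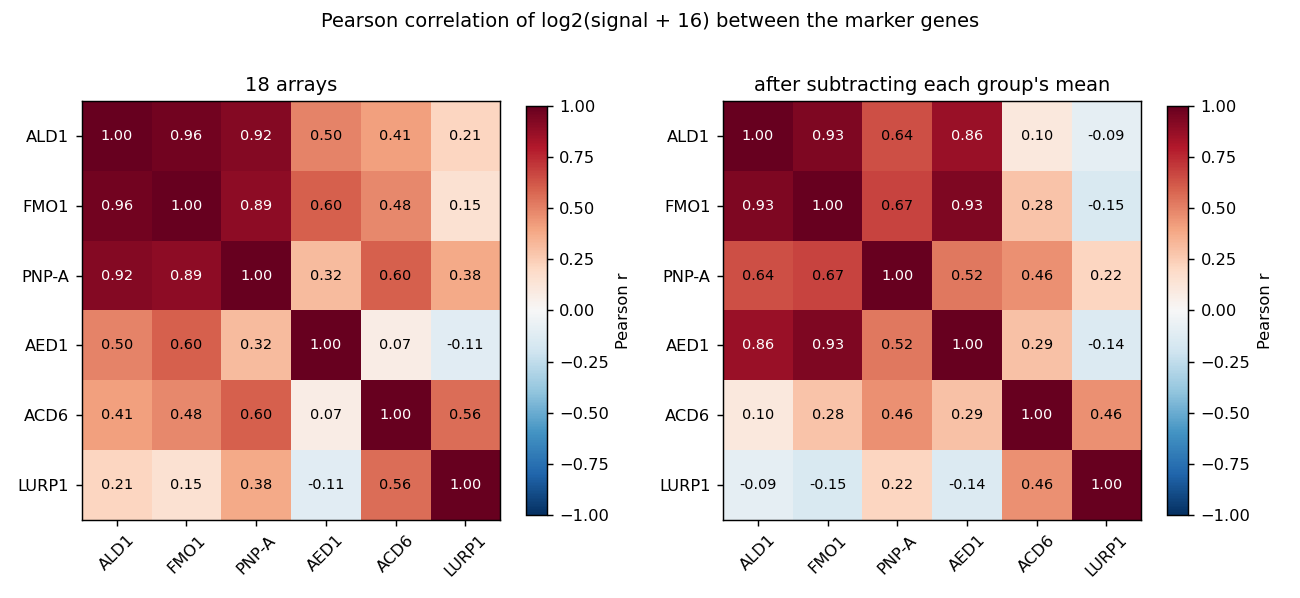
Pearson correlation of log2(signal + 16) between the 6 marker genes over the 18 arrays (left) and after subtraction of each group's mean (right); colour runs from -1 to 1. ALD1, FMO1 and PNP-A form a block of 0.89 to 0.96 on the left, and ALD1, FMO1 and AED1 a block of 0.86 to 0.93 on the right.

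The named genes most like ALD1 over the 18 arrays were AT3G13610 (r = 0.98), a hydroxylase of scopoletin synthesis, the glycosyltransferase UGT73D1 (0.96) and AT3G47540, of the chitinase family (0.94). Those most like FMO1 were AT5G18470 (0.95), AT4G39830 (0.94) and AT1G10340 (0.94), and those most like PNP-A the glutaredoxin GRX480 (0.96), AT5G46230 (0.96) and AT5G39670 (0.95). Since these 9 were picked for their likeness over arrays among which SA set 1 stood highest, their set 1 differences, from 1.71 to 3.97 in log2, were largely fixed by the choice and are a description. Leaving out any of 4 arrays of set 1, SA replicates 1 and 3 and silwet replicates 1 and 2, ended the call of AT5G18470 (limma adjusted p from 0.0764 to 0.113). AT4G39830 lost its call without replicate 1 (0.0948) or replicate 2 (0.0681) by limma adjusted p, and AT1G10340 without replicate 1 (0.0628). The genes most like AED1 were the chitinase CHI (AT2G43570, 0.89), AT1G26390 (0.85) and AT3G14920 (0.83). None of these passed in set 1. CHI, at 1.72 ± 0.68 (limma adjusted p = 0.107), passed when pairs were blocked (0.011) and, like AED1, without silwet replicate 3 of set 1 (2.75, limma adjusted p = 0.00326). As CHI was picked for its likeness to AED1 over these arrays, this too is a description. Those most like ACD6 were AT2G21160 (0.85), LLP1 (AT5G03350, 0.83) and AT1G23850 (0.79). AT1G23850 rose in set 1 by 0.90 ± 0.24, a call that ended when SA replicate 1, SA replicate 2 or silwet replicate 2 of set 1 was left out (limma adjusted p from 0.0527 to 0.0986). Those most like LURP1 were AT2G41090 (0.82), IQD23 (0.79) and AT1G78620 (0.78), of which none was called in set 1. AT1G78620, at 0.53 ± 0.21, passed when pairs were blocked (limma adjusted p = 0.0402).

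Lists of the pathway and of relatives of the members held 44 other genes, of which the probe table named 15 and 12 were tested. The lists were drawn up with earlier results of these data known, so their counts are a description. In set 1, 4 of the 12 rose and none fell, where 6.8% of all tested probe sets were called higher and 6.05% lower. When pairs were blocked, AED3 and DIR1-like were called lower as well. Beside SARD4 and UGT76B1 the genes that rose were SAG101, which acts with EDS1 in immunity, and LLP1, a lectin-like protein that acts in systemic resistance. LLP1 had 2106, 2067 and 2070 on SA arrays against 1254, 600 and 1287 on silwet arrays, a log2 difference of 1.06 ± 0.27 (SE, n = 3 each, limma adjusted p = 0.0173). Its call ended without silwet replicate 2 of set 1 (0.71, limma adjusted p = 0.100), without SA replicate 3 of set 1 (0.0545), and without any of the 3 replicate numbers. SAG101 had 137, 73.3 and 99.7 against 32.7, 33.7 and 47.1. It rose by 1.12 ± 0.24 in log2 (limma adjusted p = 0.00620), a call that ended without replicate 1 (0.0845) and without replicate 3 (0.0615).

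Of 11 genes of mobile signals and lipid transfer, 4 were tested, and LLP1 was the 1 called. AED3, an aspartyl protease like AED1, was at -1.40 ± 0.56 in set 1 (limma adjusted p = 0.114), with a mean of 182 ± 110 on SA arrays and 464 ± 200 on silwet arrays (SD, n = 3 each). The lipid transfer protein DIR1-like was at -0.99 ± 0.37 (limma adjusted p = 0.0883). When pairs were blocked, where 27.9% of probe sets were called in set 1 against 12.8% without it, both passed as lower (limma adjusted p = 0.00226 for AED3 and 0.00387 for DIR1-like). Both also passed without all arrays of replicate 1 (limma adjusted p = 0.0188 and 0.0404), and DIR1-like without SA replicate 1 of set 3 (0.0314). BSMT1, which methylates salicylic acid, was at -0.04 ± 0.55.

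Of the 9 close relatives of the members, 8 were named, 5 were tested and none was called in any set. Of all tested probe sets, 12.8% were called in set 1 and 0% in sets 2 and 3, so so few genes do not set the relatives apart. The LURP1-related genes AT3G15810, AT5G01750 and AT2G30270 were at 0.33, 0.27 and 0.11 in set 1. The ankyrin genes AT4G14390, which lies next to ACD6, and AT4G05040 were at 0.31 and 0.01. None of the 12 genes of SA perception was named by the probe table. Of the 12 genes directly before or after a member on the chromosome, 5 were tested, and none was called in set 1 (0.01 to 0.31 in log2), against 12.8% of all tested probe sets.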

How the data were processed

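Total RNA was measured on 18 ATH1 arrays. The deposited intensities are linear MAS5 signals that the authors had scaled: with 2% of values trimmed from both ends, each array averaged 100.01. MAS5 is named, without a version, per the submitters' processing notes. The genome build is not given in the sources used here. The number of arrays limits the precision.

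Signals were transformed as log2(signal + 16). Control probe sets were left out, and of the rest the 60% with the highest mean were tested, which left 13647. A model of the 6 groups of treatment and serial set (12 residual degrees of freedom) was fitted with limma 3.58.1 in R 4.3.3. Tests were two-sided, with moderation that followed the mean level. The fit was tested on simulated arrays. Members, lists and model were chosen with earlier results of these data known.

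SA and silwet arrays with the same replicate number in their titles, in sets matched by the order of serial numbers, were correlated in their deviations from the group means (0.129 to 0.770 in the 9 pairs), so the pairs served as a block in an alternative fit. Named genes were the members, the genes of the lists (up to 4 per list, all tested relatives) and the 3 most correlated with each member. Promoter motifs were not analysed here. The alternatives were other pseudocounts, filters, normalizations and blocks, array weights (estimated gene by gene, since limma's default estimate did not converge), leaving out arrays or replicate numbers, and 9 against 9 arrays.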

Additional observations from a re-analysis of the deposited data

Results flagged for a closer look

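For 3 of the 6 members the effect of SA was not alike in the serial sets by a direct test, where 7.94% of all tested probe sets were called in either direction. The model by set was chosen with earlier results of these data known. The excess of set 1 over the mean of sets 2 and 3 was 2.59 for ALD1, 2.59 for FMO1 and 2.57 for PNP-A on the log2 scale (limma adjusted p = 0.00347, 0.0296 and 0.00275). All 3 calls ended without the arrays of replicate 1 or of replicate 2. The F test, by which 3.52% of probe sets were called, gave limma adjusted p = 0.0137 for ALD1 and 0.0108 for PNP-A. FMO1 did not pass it (0.0889), but did with each of the replicate blocks given above. In set 1, SA was higher in 3 of 3 pairs for each of these genes. That follows from their arrays not overlapping there, and it held for LURP1 too, which was not called. The ubiquitin control ratio of the SA arrays of set 1, given above, moved with this difference, and its part was not tested. With 3 arrays per group, single arrays were not screened as outliers.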

How the results depend on the processing

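The set 1 calls of ALD1, FMO1 and PNP-A stood under each alternative that tested them, except that FMO1 lost its call without replicate 1 or 2. In the upper 40% by mean, FMO1 and ALD1 were not tested. Of the 4 members tested there, 1 was called in set 1 (as were 15.7% of probe sets in either direction). In the excess of set 1 it was 1 member (10.1%), and in the F test 1 (4.52%). Among SA arrays, 1 member was called in set 2 against set 1 (32.6%) and 2 in set 3 against set 1 (37%). Quantile normalization called 5 members in SA set 2 against set 1, where 28.6% of probe sets were called in either direction.

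Averaged over sets, 0.256% of probe sets were called. This became 0% with a pseudocount of 1, 0.572% with 64, 0.055% in the upper 40%, 0.843% with array weights and 0% for 9 against 9 arrays. There 1 member, ALD1, was called with a pseudocount of 64 and with the 9 pairs or the replicate number as a fixed block.

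With the 9 pairs as a replicate block, 27.9% of probe sets were called in set 1 (12.8% without), 1.93% on average, 21.9% for the excess of set 1 (7.94%) and 18.2% by the F test (3.52%). In the comparisons of SA with silwet, the only ones that the pairs allow, this block changed no call of a named gene beyond those given above. With the replicate number fixed, 0.843% were called on average, 12.5% for the excess, 1.09% and 2.23% for silwet sets 2 and 3 against set 1 (0.572% and 1.05%) and 7.69% by the F test. With it random these were 0.586% on average, 0.894% and 1.72% for silwet sets and 6.82% by the F test. Array weights gave 17.4% for the excess, 5.77% and 6.54% for silwet sets, 41.9% for SA set 2 against set 1 (27.5%) and 10.5% by the F test.

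Leaving out arrays or a replicate number gave 3.08% to 15.6% in set 1, 0% to 0.638% on average, 0.857% to 9.68% for the excess, 0.139% to 4.86% by the F test, 0.0147% to 0.879% and 0.264% to 1.58% for silwet sets 2 and 3, and 13.7% to 31.2% and 13.3% to 36.7% for SA sets 2 and 3. Members called ran from 0 to 3 for the excess and the F test, 0 to 2 on average and 0 to 1 for silwet set 3.

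Uncalled differences that changed sign were these, and their cause was not tested. In silwet set 3 against set 1, FMO1 was -0.072 with a pseudocount of 64 and -0.13 with weights, and under quantile normalization ACD6 was -0.011 and LURP1 -0.096 (LURP1 -0.046 in silwet set 2). With weights, PNP-A was 0.0052 for SA in set 2, FMO1 0.018 for SA in set 3, and AED1 0.10 for SA set 3 against set 1. With arrays or replicates left out, the SA difference in set 2 ran from -0.0099 to 0.48 for ALD1, -0.0099 to 0.66 for FMO1, -0.29 to 0.21 for PNP-A, -0.68 to 0.17 for ACD6 and -0.43 to 0.012 for LURP1. In set 3 it ran from -0.34 to 0.083 for ALD1, -0.65 to 0.12 for FMO1 and -0.67 to 0.18 for AED1. In silwet set 3 against set 1 it ran from -0.43 to 0.98 for FMO1, -0.16 to 0.86 for ALD1, -0.22 to 0.26 for ACD6, -0.15 to 0.53 for PNP-A and -0.16 to 0.26 for LURP1. In silwet set 2 it ran from -0.60 to 0.33 for ACD6 and -0.071 to 0.29 for LURP1, and in SA set 3 against set 1 from -0.45 to 0.31 for AED1. In set 1 it ran from -0.32 to 0.42 for BSMT1, -0.11 to 0.15 for AT4G05040, -0.028 to 0.25 for AT2G30270, -0.17 to 1.42 for AT1G26390 and -0.052 to 0.23 for AT2G41090.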

Other observations

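LLP1, a gene of the mobile signal list, correlated with ACD6 at 0.83 over the 18 arrays. The SA arrays of LLP1 lay above its silwet arrays in set 1 and below them in set 3. In set 3 it had 618, 710 and 730 on SA arrays against 907, 1320 and 1397 on silwet arrays, a log2 difference of -0.78 that did not pass (limma adjusted p = 0.9998). ACD6 was at -0.76 there, also with every SA array below every silwet array, as for 2.7% of tested probe sets, while in set 1 its arrays overlapped. This likeness in set 3 was noticed after the values had been seen. LLP1 was also among the genes most like ACD6 over arrays that include set 3, so the likeness was partly fixed by that choice and is a description.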
